A study of Homo sapiens with 6 samples.

Results

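The baseline transcriptome of U87 cells was described from the 3 libraries, called A, B and C, that received the control siRNA siGL2. These are 3 of the 6 libraries in the study, and each lists the same 27192 gene symbols. U87 is an established human glioblastoma cell line, labelled as brain. The cells were reverse transfected with siGL2, a nonspecific siRNA, in Lipofectamine RNAiMAX, transfected again with the same reagents 24 hours later and collected 24 hours after that. The other 3 libraries received siRNAs against LINC00152 and enter no value here. All 3 control libraries therefore carry a transfected siRNA, and cells with no transfection were not analysed here. The labels do not say whether A, B and C came from separate cultures, so the spread between them may be technical. The cells are a cultured line without the vessels, immune cells and surrounding brain of a tumour.

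Glioblastoma cells are grouped by expression into mesenchymal, proneural and classical classes, which are led by wound-healing and matrix genes, oligodendrocyte progenitor genes and EGFR signalling genes respectively. Cells of the mesenchymal class express the intermediate filament vimentin and secrete much extracellular matrix. That matrix is built from fibrillar and network collagens, fibronectin, laminins and proteoglycans, and it is cut by metalloproteinases and serine proteases. Cells hold it through integrins, pairs of alpha and beta chains in the membrane.

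Totals were 42474451 counts in A, 42139419 in B and 46234763 in C. Counts were scaled to counts per 1000000 (CPM) by these totals. For a gene listed at 0, counting error alone allows 3 counts, which is 0.0649 CPM in the deepest library and 0.0712 in the shallowest. At least 1 CPM in every library, the level called expressed here, was reached by 12088 genes, 44.5% of those listed. Of 19132 protein-coding genes, 11258 (58.8%) reached it. No count at all was found for 7870 genes.

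Library A stood apart from B and C. The chi-square of counts over genes, per degree of freedom, was 10.9 for A against B, 13.7 for A against C and 2.91 for B against C, so no pair agreed within sampling noise. The 9242 genes averaging 10 CPM or more were compared between A and the mean of B and C, and 4 (0.0433%) differed by 1.5-fold or more. KIAA0754, NBEAL1 and ZBED6 were higher in A and MALAT1 was lower. At a ratio of 5 to 4 or more the numbers were 121 genes for A, 17 for B and 13 for C, each against the other libraries. The direction followed transcript length, taken as the longest annotated transcript. Genes were split into 10 groups by length. In the group with the shortest transcripts (median 1155 bases) the median log2 ratio of A to the mean of B and C was -0.12, and 8.15% of genes were higher in A. In the group with the longest (median 9911 bases) the median was 0.15, and 86.1% were higher in A. The median rose at every step between these groups. Across 9191 genes the Pearson correlation of this ratio with log2 length was 0.61. It is given as a description, because genes of 1 library share its depth and preparation. What in A differs, in the cells or in the RNA, was not tested.

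**Figure D1:**
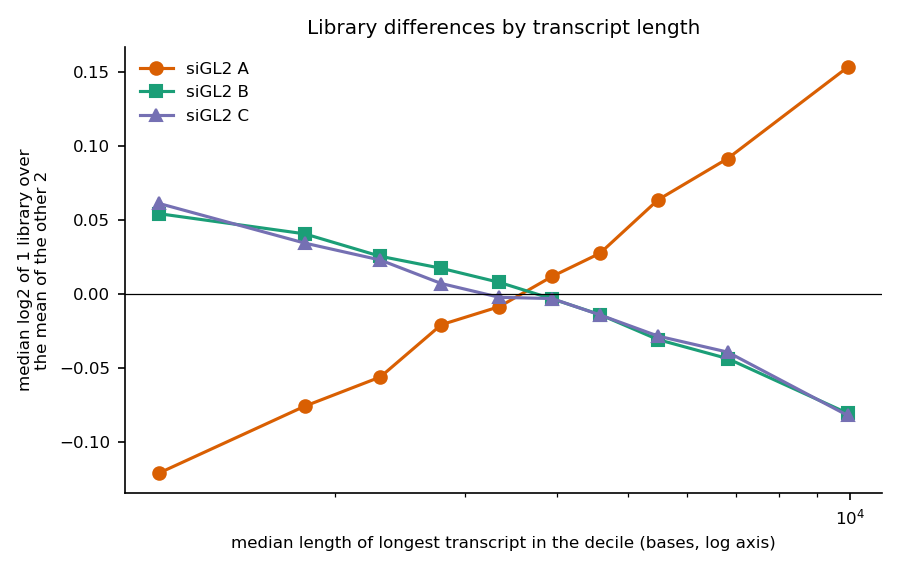
Median log2 ratio of each library to the mean of the other 2 (vertical axis) against median longest-transcript length in bases (horizontal log axis), in 10 groups of genes averaging 10 CPM or more. The line of siGL2 A runs from -0.12 at the shortest transcripts to 0.15 at the longest; B and C slope the other way because each is set against a mean that includes A.

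Gene groups were compared in the same way. All 12 integrin genes of at least 10 CPM were higher in A, with a median log2 ratio of 0.11 and a median longest transcript of 4666 bases. Among collagens 14 of 15 were higher in A, with a median of 0.11. Of 71 genes for cytosolic ribosomal proteins, a group chosen after the values were seen, 70 were lower in A, with a median of -0.16 and a median transcript of 1171 bases. Length did not order every group. Mesenchymal subtype genes, with a median transcript of 2513.5 bases, had a median of 0.06 and 8 of 12 higher in A. All 3 leukocyte markers of this level, with a median of 1878 bases, were higher in A, but by a median of only 0.03. Of these, CD68 shares much sequence with other genes and HLA-DRA lies in the histocompatibility complex, where few genes were counted. Genes recurrently altered in glioma, with a median of 7614.5 bases, had a median of 0.04 and 12 of 20 higher in A. Over all 9242 genes 4577 were higher and 4665 lower in A.

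By listed counts the most abundant gene was VIM, which encodes vimentin (chromosome 10, 17228259 to 17237593, GRCh38). It stood at 8819 CPM in A, 9357 in B and 9382 in C, a mean of 9186 ± 318 (SD, n = 3). A was the lowest library and B and C nearly coincided. GAPDH, a glycolytic enzyme, followed at 8158, 8681 and 8585 CPM. RNR2, listed on the mitochondrial genome as a ribosomal RNA gene, came after these at 6815, 6862 and 8049 CPM and was highest in C.

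By counts the next places went to LDHA, ACTB, FN1, ENO1, FTH1, PKM and ACTG1. LDHA, ENO1 and PKM are glycolytic enzymes, ACTB and ACTG1 are the cytoplasmic actins and FTH1 is the ferritin heavy chain that stores iron. FN1, the matrix protein fibronectin, stood at 5986 CPM in A against 5007 in B and 4909 in C. The A value lay above both others, as did that of COL6A3, a chain of collagen VI, at 3811, 3176 and 3114 CPM. AHNAK, a very large scaffold protein, showed the same order at 3219, 2493 and 2438 CPM. The list of 20 was completed by TGFBI, HSP90AA1, TFPI2, MMP2, FLNA, CALU, CD44 and ALDOA.

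Long transcripts collect more counts per molecule, so genes were compared with each other per kb of annotated exon. On that scale VIM again came first at 4917 ± 170 CPM per kb (SD, n = 3), followed by GAPDH at 3811 ± 125. FTH1 at 2869 ± 292, ACTB at 2736 ± 31.3, LGALS1 at 2706 ± 97.9 and TMSB10 at 2654 ± 247 CPM per kb came next. The order of these genes changed between libraries, though FTH1 lay above TMSB10 in each. LGALS1 is galectin-1, a sugar-binding protein, and TMSB10 is a thymosin that binds actin monomers. Only 11 genes were in both lists of 20. FN1, COL6A3, FLNA and AHNAK dropped out per length, at 583, 310, 327 and 141 CPM per kb. Short genes entered in their place: FTL, the ferritin light chain, MT2A, a metallothionein, RPS12, a ribosomal protein, and S100A6, a calcium-binding protein. MIR3654 also entered, at 1104 CPM per kb, but its annotation spans only 56 bases and it had 61.9 CPM. FTH1 and TUBA1B have 13.7% and 18.6% of their 75-base stretches in common with other genes, RPS12 11.4% and ALDOA 35.1%, so their counts are uncertain. Other genes that share sequence may be undercounted, so abundant ones can be missing from both lists of 20.

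**Figure D2:**
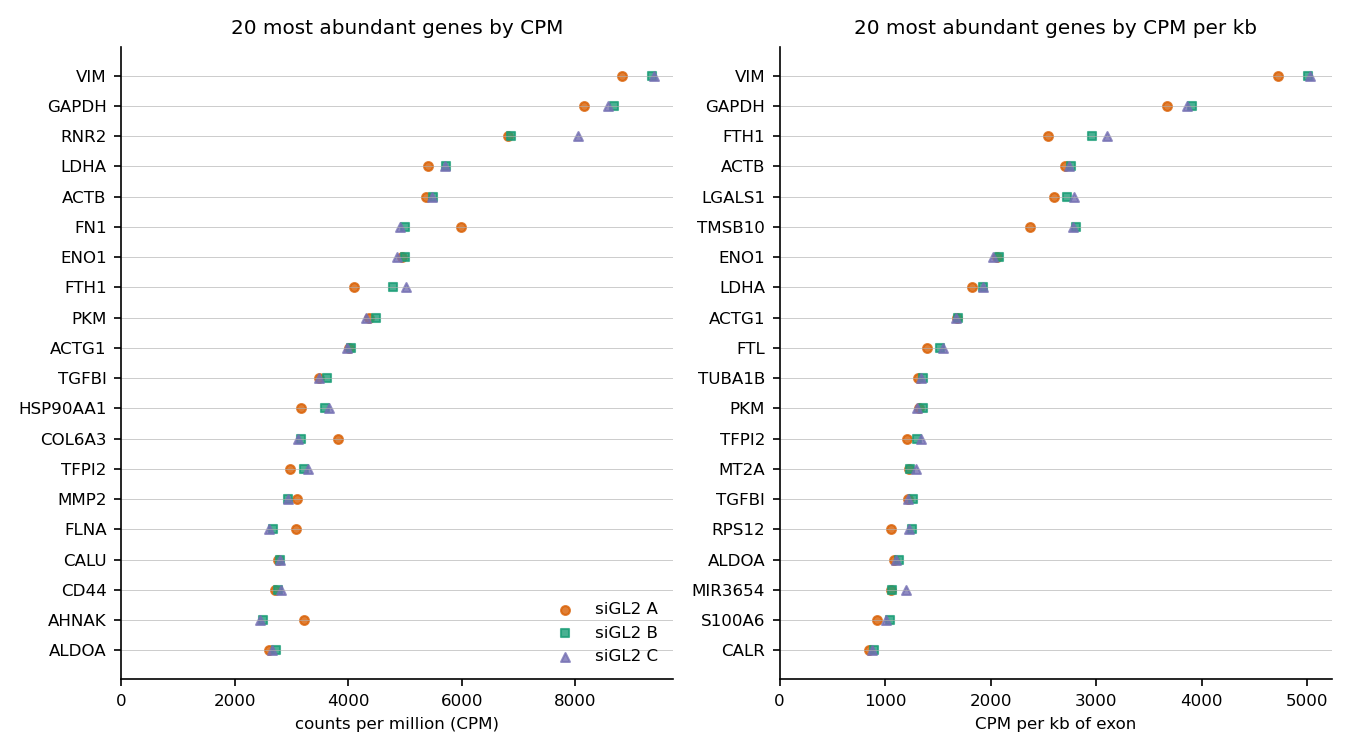
The 20 most abundant genes of the siGL2 libraries by CPM (left) and by CPM per kb of exon (right), each point a library. VIM leads both panels; the points of siGL2 A lie to the right for FN1, COL6A3 and AHNAK and to the left for FTH1 and TMSB10.

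Counts were spread over many genes. The most abundant gene took 0.882% of A, 0.936% of B and 0.938% of C, and the 20 most abundant took 8.95% ± 0.0480 (SD, n = 3). A set of 958 genes in A, 956 in B and 954 in C made up 50% of the counts. Protein-coding genes took 98.1%, 98.0% and 97.9% of the counts in A, B and C. Long noncoding genes took 0.698%, 0.773% and 0.768%, and 386 of 2439 were expressed.

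MALAT1, a nuclear RNA of splicing speckles, led the long noncoding genes at 1201 CPM in A, 1859 in B and 1804 in C. It was lower in A, with a log2 ratio of -0.60 to the other libraries, against the trend of long transcripts. NORAD, a cytoplasmic RNA that binds Pumilio proteins, was even across libraries at 611, 597 and 605 CPM, with 15.8% of its 75-base stretches in other genes. NEAT1, which builds paraspeckles, had 554, 601 and 556 CPM. LRRC75A-AS1, FGD5-AS1, MIR100HG, TUG1, SNHG5, SNHG3 and SNHG1 completed the first 10, with means of 353 to 86.9 CPM. LINC00152, the target in the other arm of the study (chromosome 2, 87454781 to 87636740), had 650, 608 and 776 counts, or 15.3, 14.4 and 16.8 CPM, and ranked 62 among long noncoding genes. Its near-copy MIR4435-2HG, on the other arm of chromosome 2 (111036776 to 111523376), had 40.5, 38.4 and 40.7 CPM and ranked 23. LINC00152 has 20.01% of its 75-base stretches in common with other genes and MIR4435-2HG 19.1%, so their counts are uncertain.

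The start regions of the abundant genes were searched for TATAAA, the classical core promoter word, because it marks a minority of promoters. The window ran from 45 to 16 bases before any start that RefSeq lists for the gene on GRCh38.p14, on the gene's strand only. The word was found in 5 of 41 of the 50 most abundant protein-coding genes that had a promoter in the table (12.2%), 11 of 165 of the first 200 (6.67%) and 32 of 800 of the first 1000 (4.0%). Among all expressed protein-coding genes it was found in 1.97%, among genes with no count in 9.41%, and among all 14765 protein-coding genes with a promoter in 4.10%. The share was thus higher in the first 50 and in genes with no count than among all protein-coding genes. Among the first 1000 it was near that of all, and the differences were not tested. The value for the first 50 rests on 5 genes. These 5 promoters are shown from 60 bases before the start to 20 bases from it, with the word in capitals.
EEF2 (chr19:3985444-3985523, minus strand): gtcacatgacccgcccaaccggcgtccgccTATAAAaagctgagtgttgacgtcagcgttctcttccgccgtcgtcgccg
CALR (chr19:12938549-12938628, plus strand): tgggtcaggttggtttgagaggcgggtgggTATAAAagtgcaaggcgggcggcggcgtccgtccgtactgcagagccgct
RPLP0 (chr12:120201092-120201171, minus strand): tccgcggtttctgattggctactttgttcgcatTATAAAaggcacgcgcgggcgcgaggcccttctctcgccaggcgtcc
ANXA2 (chr15:60397967-60398046, minus strand): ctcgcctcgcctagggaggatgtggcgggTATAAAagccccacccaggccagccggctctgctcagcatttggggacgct
ANXA1 (chr9:73151805-73151884, plus strand): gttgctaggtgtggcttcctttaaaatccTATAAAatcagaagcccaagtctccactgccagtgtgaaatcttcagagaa
The word begins 30 bases before the start in EEF2 and CALR, 31 in ANXA2 and ANXA1 and 27 in RPLP0. EEF2 is a translation elongation factor at 2185 ± 53.4 CPM (SD, n = 3), and CALR, a chaperone of the endoplasmic reticulum, stood at 1655 ± 47.9. RPLP0 is a ribosomal stalk protein at 1449.7 ± 88.6 CPM. The annexins ANXA2 and ANXA1 bind membranes in the presence of calcium and stood at 1351 ± 59.4 and 1344 ± 71.4 CPM.

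Marker lists of brain and other lineages are read against the 58.8% of protein-coding genes expressed. Mesenchymal and fibroblast markers were expressed in 14 of 18 (77.8%), astrocyte markers in 9 of 17 (52.9%), neuron markers in 6 of 16 and neural stem cell markers in 3 of 11. Oligodendrocyte lineage markers and microglia and leukocyte markers were each expressed in 3 of 12, endothelial markers in 3 of 8 and epithelial markers in 3 of 11. Medians of the mean level were 31.5 CPM for the mesenchymal list and 1.23 CPM for the astrocyte list, and 0.696 CPM or less for the other 6 lists.

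Astrocyte genes spanned a continuous range of levels. GJA1, the gap junction protein connexin 43, had 433, 439 and 438 CPM, and CLU, the secreted chaperone clusterin, 394, 404 and 397 CPM. ALDOC, NFIB, SLC1A3 and SOX9, an aldolase, a transcription factor, the glutamate transporter GLAST and another transcription factor, had means of 69.1, 66.2, 45.2 and 36.8 CPM. GLUL, glutamine synthetase, NFIA, a transcription factor, and SLC1A2, a glutamate transporter, followed at 23.2, 5.65 and 1.23 CPM. GFAP, the filament protein that defines astrocytes, had 2, 7 and 12 counts, or 0.158 ± 0.106 CPM (SD, n = 3). The water channel AQP4 and the connexin GJB6 were listed at 0 in every library, and S100B had 0, 1 and 1 counts. Of the 17 astrocyte markers, then, 9 were expressed, while GFAP, AQP4 and S100B were among those at or near 0.

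Among oligodendrocyte lineage genes CSPG4, the proteoglycan NG2, had 136, 115 and 111 CPM and CNP, a myelin-associated enzyme, 102, 104 and 98.2. The progenitor receptor PDGFRA had 5.001 ± 0.164 CPM (SD, n = 3), with 14.7% of its stretches in other genes. OLIG1, SOX10, NKX2-2, MOG and MAG were listed at 0, MOG in the histocompatibility complex, where few genes were counted. The fate regulator OLIG2 had 23, 28 and 21 counts. The neuronal tubulin TUBB3 had 236, 236 and 225 CPM, with 31.3% of its stretches in other genes. SNAP25, of the vesicle fusion complex, had 63.8, 65.9 and 65.9 CPM. GAD1, MAP2 and GAP43 followed at 19.96, 18.6 and 10.9 CPM, while RBFOX3 and ELAVL4, which mark mature neurons, were listed at 0.

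Stem cell genes were represented by NES, an intermediate filament, at 39.9, 39.7 and 37.8 CPM and by the neural regulator PAX6 at 13.6 CPM. SOX2 had 2, 1 and 0 counts. MSI1 and NR2E1 were among those listed at 0. Among mesenchymal regulators, CDH2 (N-cadherin) had 119.8 ± 2.89 CPM (SD, n = 3) and the transcription factors ZEB2, PRRX1, SNAI2, ZEB1 and TWIST1 had 108, 91.5, 79.2, 60.2 and 13.4 CPM. THY1, DCN, TWIST2 and POSTN, which fibroblasts can express, had means of 0.132 CPM or less.

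Leukocyte genes were led by CD68, a lysosomal protein, at 342, 340 and 339 CPM. Other genes hold 70.6% of its stretches and 95.3% of its exonic bases on the same strand, so its count is uncertain. HLA-DRA, a class II histocompatibility chain, had 82.0, 78.3 and 76.0 CPM, and the receptor CSF1R had 23.4, 22.7 and 23.3 CPM. In the same list AIF1 (in the histocompatibility complex, where few genes were counted), P2RY12, TYROBP and SPI1 were listed at 0. PTPRC had 4, 2 and 0 counts. The class II genes CD74, the invariant chain, at 221 ± 4.31 CPM (SD, n = 3), HLA-DRB1 at 103 ± 2.12 and their activator CIITA at 39.7 CPM in A, 32.6 in B and 29.5 in C, with 10.8% of its stretches in other genes, were named after their values were seen. Of the other class II genes, HLA-DPB1, HLA-DQA1, HLA-DQB1 and HLA-DRB5 were expressed. HLA-DMA, HLA-DOB, HLA-DPA1, HLA-DQA2 and HLA-DQB2 were listed at 0, HLA-DMB had 1, 0 and 0 counts and HLA-DOA 1, 1 and 0. Endothelial markers summed to 10.01 to 10.9 CPM and epithelial markers to 6.96 to 7.72 CPM in the 3 libraries. KDR led the former at 5.47 CPM and KRT8 the latter at 3.97 CPM, and the epithelial genes GRHL2 and KRT5 were listed at 0.

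**Figure D3:**
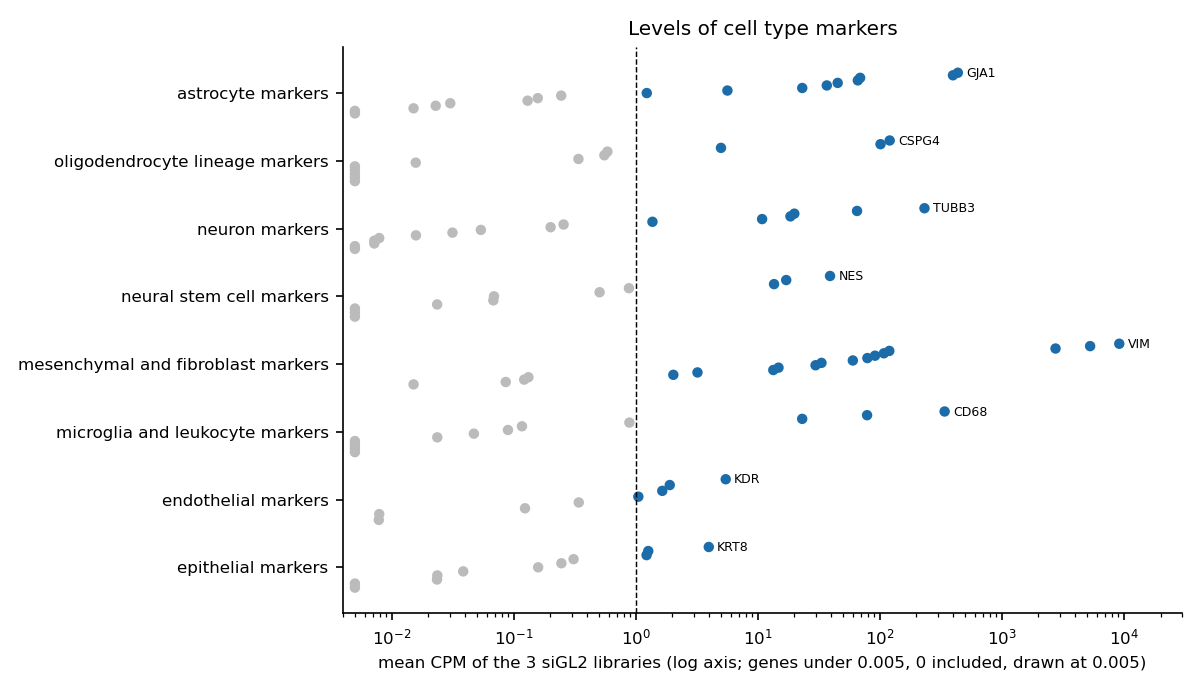
Mean CPM of each marker gene (log axis) in the 8 cell type lists, with genes of a mean under 0.005 CPM drawn at 0.005 and the dashed line at 1 CPM. Blue points have a mean of 1 CPM or more, which 1 endothelial gene reached without reaching 1 CPM in every library. VIM lies at 9186 CPM in the mesenchymal list, and the endothelial and epithelial lists have no gene above 5.47 CPM.

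Of the mesenchymal subtype genes of glioblastoma 14 of 15 (93.3%) were expressed, with a median of 112 CPM. In the classical list 8 of 12 (66.7%) were expressed (median 19.5 CPM), near the 58.8% of all protein-coding genes, and in the proneural list 4 of 13 (30.8%, median 0.361 CPM). These lists too were chosen with earlier results known, and the difference between them was not tested. TGFBI, a matrix protein induced by TGF-beta, had 3488, 3626 and 3486 CPM. The receptor MET had 536, 478 and 502 CPM and the AP-1 factor FOSL1 493, 467 and 464. MERTK, at 4, 7 and 4 counts, was the mesenchymal gene not expressed.

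In the proneural list TCF4, NCAM1, PDGFRA and SOX4 were expressed, at 75.7, 23.7, 5.001 and 4.83 CPM, and NKX2-2 was among those listed at 0. EGFR, which leads the classical list, had 166 CPM in A, 111 in B and 118 in C. A lay above both others, and the mean of B and C was 114 CPM. AKT2 had 130.3 ± 3.68 CPM (SD, n = 3), and NOTCH3 had 52.5 CPM in A against 39.4 and 38.1. MEOX2 was listed at 0 and the Hedgehog signal transducer SMO had 1, 0 and 4 counts.

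Of 32 genes recurrently altered in glioma 21 (65.6%) were expressed, near the 58.8% of all protein-coding genes. MET was followed by CDK4 at 226 ± 9.41 CPM (SD, n = 3), ATRX at 163 ± 9.33, MDM2 at 151 ± 6.49 and EGFR. The tumour suppressor NF1 had 121 CPM in A, 92.0 in B and 95.6 in C, and RB1 had a mean of 86.1 CPM, which says nothing of whether their sequence is intact. TERT, the catalytic subunit of telomerase, had 73, 64 and 41 counts, or 1.72, 1.52 and 0.887 CPM. CDKN2A, CDKN2B, CDKN2C, MTAP, MGMT, H3F3A and MYCN were listed at 0 in every library. H3F3A has 10.99% of its stretches in other genes, and H3F3B, which encodes the same histone H3.3 protein, had 484 CPM.

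CDKN2A encodes the cell cycle inhibitors p16 and p14ARF, and its locus is often deleted in glioblastoma. A window of 1.5 Mb on either side of the gene (chromosome 9, 21967753 to 21995301) touches 24 annotated protein-coding genes. Of these 22 (91.7%) were listed at 0 in all libraries, against 18.5% of other protein-coding genes. The exceptions were KLHL9 with 1, 1 and 1 counts and MLLT3 with 1, 2 and 4. Interferon genes, which are silent in most unstimulated cells, account for 16 of the 24. The others at 0 were FOCAD, HACD4, MTAP, CDKN2A, CDKN2B and DMRTA1. Outside the block, SLC24A2 had 1454, 1163 and 1293 counts on one side and ELAVL2 78, 57 and 66 on the other. Loss of the DNA and silence of the genes cannot be told apart in these counts.

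**Figure D4:**
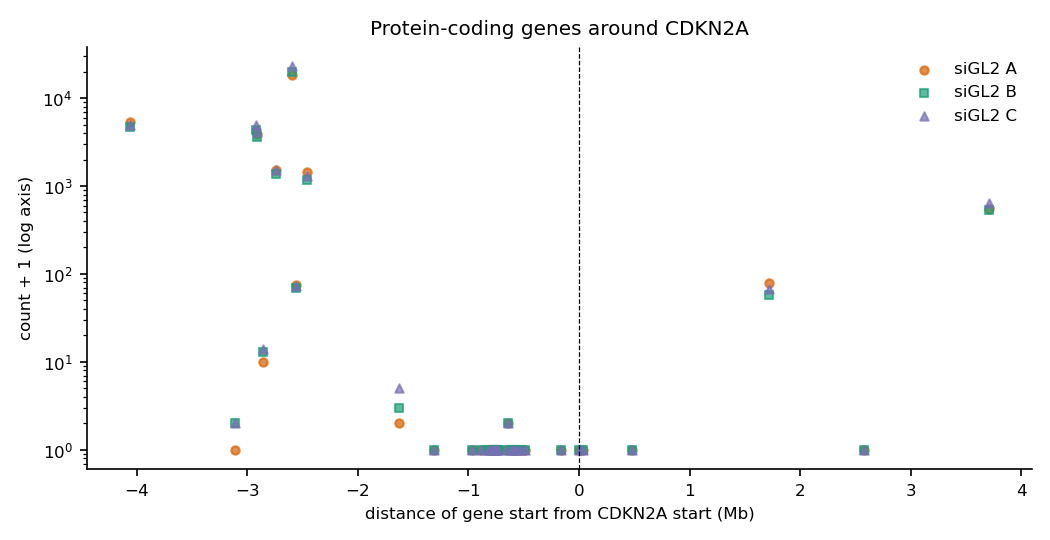
Count plus 1 in each siGL2 library (vertical log axis) of the protein-coding genes around CDKN2A against the distance of their annotated starts from that of CDKN2A in Mb. From MLLT3 to DMRTA1 no gene has more than 4 counts, while RPS6 on one side has 18311 or more and TUSC1 on the other 539 or more.

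The surroundings of CDKN2C were examined after the values were seen and were mixed. Of 7 protein-coding genes in a window of 0.6 Mb on either side, 3 (42.9%) were listed at 0, against 18.5% of other protein-coding genes, and 2 were expressed. CDKN2C (chromosome 1, 50960745 to 50974633), another inhibitor of CDK4, and DMRTA2 were among those at 0, and FAF1, which adjoins CDKN2C, had 1, 3 and 7 counts. RNF11 in the same window had 5587, 6075 and 6809 counts and EPS15 3952, 3677 and 4110.

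Some near-zero entries concern genes that nearly every cell uses. In the major histocompatibility complex 16 of 170 protein-coding genes (9.41%) were expressed, against 59.4% of protein-coding genes elsewhere. HLA-B and HLA-DRB1 were counted there at 53.8 and 103 CPM. TUBB, a beta tubulin, had 9, 12 and 10 counts. The chloride channel protein CLIC1, the valyl tRNA synthetase VARS and the RNA helicase DDX39B were listed at 0. In pseudoautosomal region 1 of the sex chromosomes 2 of 15 genes were expressed, and SLC25A6, a mitochondrial carrier, had 9, 9 and 14 counts. EIF4A1, a translation initiation factor whose exons another gene overlaps fully on the same strand, was also at 0. A listing at 0 is therefore no evidence that such a gene is off. The share of protein-coding genes expressed was 58.8% among those with no 75-base stretch in another gene, 69.8% at up to 10% shared, 53.1% at 10 to 50%, 24.4% at 50 to 90% and 3.86% at over 90%. CLIC1 and VARS have at most 1.54% of stretches shared, and how reads of such regions were assigned was not stated in the labels.

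Several matrix lists were expressed about as often as protein-coding genes at large (58.8%). Collagen chains were expressed in 17 of 29 genes (58.6%), proteoglycans in 14 of 22 (63.6%), integrin chains in 16 of 24 (66.7%) and matrix glycoproteins in 21 of 31 (67.7%). The shares were higher for matrix proteases and inhibitors, at 20 of 25 (80%), and for crosslinking and collagen processing genes, at 14 of 15 (93.3%). Of 355 symbols in all lists 63.1% were expressed.

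Collagen VI, a beaded filament collagen, dominated its list. On the CPM scale, which grows with length, COL6A3 alone made 54.6% of the sum of the 29 genes. Per kb it stood at 310 against 127 for COL6A1 and 116 for COL6A2. COL6A1 had 574, 526 and 520 CPM and COL6A2 530, 498 and 500. The fibrillar collagen I genes COL1A1 and COL1A2 followed at 445 ± 26.9 and 366 ± 16.2 CPM (SD, n = 3), and per kb they were alike at 66.1 and 67.6. COL3A1, a fibrillar collagen of soft tissue, had 9, 9 and 15 counts. The basement membrane chain COL4A2 had 560, 563 and 612 counts, but COL4A1, its neighbour on chromosome 13 and usual partner, had 0, 3 and 2. No stretch of COL4A1 is held by another gene. COL9A1, a cartilage collagen, was listed at 0.

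Among glycoproteins FN1 and TGFBI were followed by TNC (tenascin-C) at 1435, 1256 and 1220 CPM and FBN1 (fibrillin-1) at 876, 734 and 718, both highest in A. SPARC, which binds collagen, was even at 602, 608 and 606 CPM. The laminin chains LAMC1 and LAMB1 had 369 and 332 CPM. The neural matrix gene TNR was listed at 0 and the elastic fibre protein ELN had 5, 1 and 2 counts. Proteoglycans were led by CD44, the hyaluronan receptor, at 2712, 2754 and 2811 CPM and by VCAN (versican) at 1375, 1163 and 1195. The syndecans SDC4 and SDC1 had 342 and 169 CPM and AGRN (agrin) 156. ACAN, FMOD and GPC3 were listed at 0, and the brain proteoglycan BCAN had 24, 24 and 23 counts.

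MMP2, gelatinase A, was the most abundant protease gene at 3101, 2930 and 2942 CPM. The other gelatinase gene, MMP9, had 0, 1 and 0 counts, at or below the floor of 3 counts. MMP14, the membrane protease that activates pro-MMP2, had 577, 562 and 564 CPM, and TIMP2, the inhibitor that takes part in that activation, had 422, 422 and 399. The urokinase gene PLAU had 483, 512 and 503 CPM beside 264 for its receptor PLAUR. CTSB, the lysosomal protease cathepsin B, had 889.7 ± 17.0 CPM (SD, n = 3).

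Enzymes that modify collagen had a median of 261 CPM. P4HB, a subunit of prolyl hydroxylase, had 1245, 1256 and 1194 CPM and the lysyl hydroxylase PLOD2 1014, 1026 and 1046. LOXL2, a lysyl oxidase, had 834, 793 and 763 CPM, and PLOD1 and P4HA2 had 591 and 307. LOXL4 at 0.634 CPM was the member not expressed. Among integrins ITGA3, a laminin receptor chain, had 1765, 1689 and 1578 CPM and the common beta chain ITGB1 1271, 1153 and 1221. ITGA5, the fibronectin receptor chain, had 1030, 985 and 968 CPM, and ITGA2 and ITGAV had 448 and 275. The leukocyte chains ITGB2 and ITGAL had 0, 0, 2 and 0, 0, 3 counts. The vitronectin receptor chain ITGB3 had 243 CPM, with 50.5% of its stretches in other genes.

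Secreted factors were expressed in 25 of 35 genes (71.4%), against 58.8% of protein-coding genes. VEGFA, the main angiogenic factor, made 51.7% of their summed CPM, at 1476, 1411 and 1421. EREG, a ligand of EGFR, had 330, 320 and 351 CPM. TGFB1 had 173 ± 2.88, CSF1 120 ± 5.21 and HGF, the ligand of MET, 99.5 ± 3.94 CPM (SD, n = 3). CCL5, CXCL10, PDGFB, AREG and IGF2 were listed at 0, and IGF2 lies wholly within another annotated gene on its strand.

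Paralogue use was measured in 63 families by the share of each member in the family's summed CPM per kb. A single member held at least 90% in every library in 23 families, and 62 families had the same first member in all libraries. By CPM without length correction 19 families were led, and by coding length 20. Of the 45 families with no member that shares much sequence, overlaps another gene or lies in the 2 regions described above, 14 were led in this way. This restriction was added after the data were seen.

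Led families covered the cytoskeleton, metabolism and signalling. VIM held 99.9% of its filament family and MYH9 99.99% of the myosin heavy chains, where MYH10 had 15, 10 and 12 counts. Of glycolytic families, ENO1 held 92.4% ± 0.185 of enolase (SD, n = 3) with ENO2 as runner-up at 7.51%, PKM 100% of pyruvate kinase and ALDOA 97.0% of aldolase. CAV1 held 97.9% of caveolin and LGALS1 96.5% of the galectins. Among regulators CCND1 held 93.4% of the D cyclins, CDK4 96.6% beside CDK6, FOSL1 91.0% of the FOS family and HMGA1 93.2% of its pair. The share of CDK4 depends on length. CDK6 has 11729 bases of exon against 2076 for CDK4, and by CPM they had 45.1 and 226. Receptor families were led by EGFR at 92.8% ± 1.02, with ERBB2 at 6.80%, FGFR1 at 99.95%, AXL at 96.1% and, just under the limit, PDGFRB at 89.1%. TGFB1 held 93.6% of the TGF-beta ligands. Among these families ALDOA, CCND2, PDGFRA and TGFB2 share sequence with or overlap other genes, so the shares in their families are uncertain.

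Other families were shared. NRAS held 86.8% ± 0.537 of RAS (SD, n = 3), while HRAS, with no shared stretch, had 10, 11 and 17 counts. RAC2, usually a blood cell form, held 56.2% ± 1.54 and RAC1 42.8% ± 1.53, and RAC2 held more than RAC1 in each library, with 57.9% in A, 55.7% in B and 54.9% in C. HAS1 held 80.2% of the hyaluronan synthases and HAS2 17.8%. TMSB10 held 83.1% of the thymosins beside 16.7% for TMSB4X. The retinoblastoma proteins were near even, with RBL1 at 37.8%, RBL2 at 35.8% and RB1 at 26.4%, as were WWTR1 (TAZ) at 52.4% and YAP1 at 47.6%. PPIB and PPIA, at 50.3% and 49.7%, were the pair whose order changed between libraries. TUBB4B held 65.8% of beta tubulin, but TUBB lies among the genes listed near 0, as EIF4A1 does in the family where EIF4A2 held 73.4%.

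**Figure D5:**
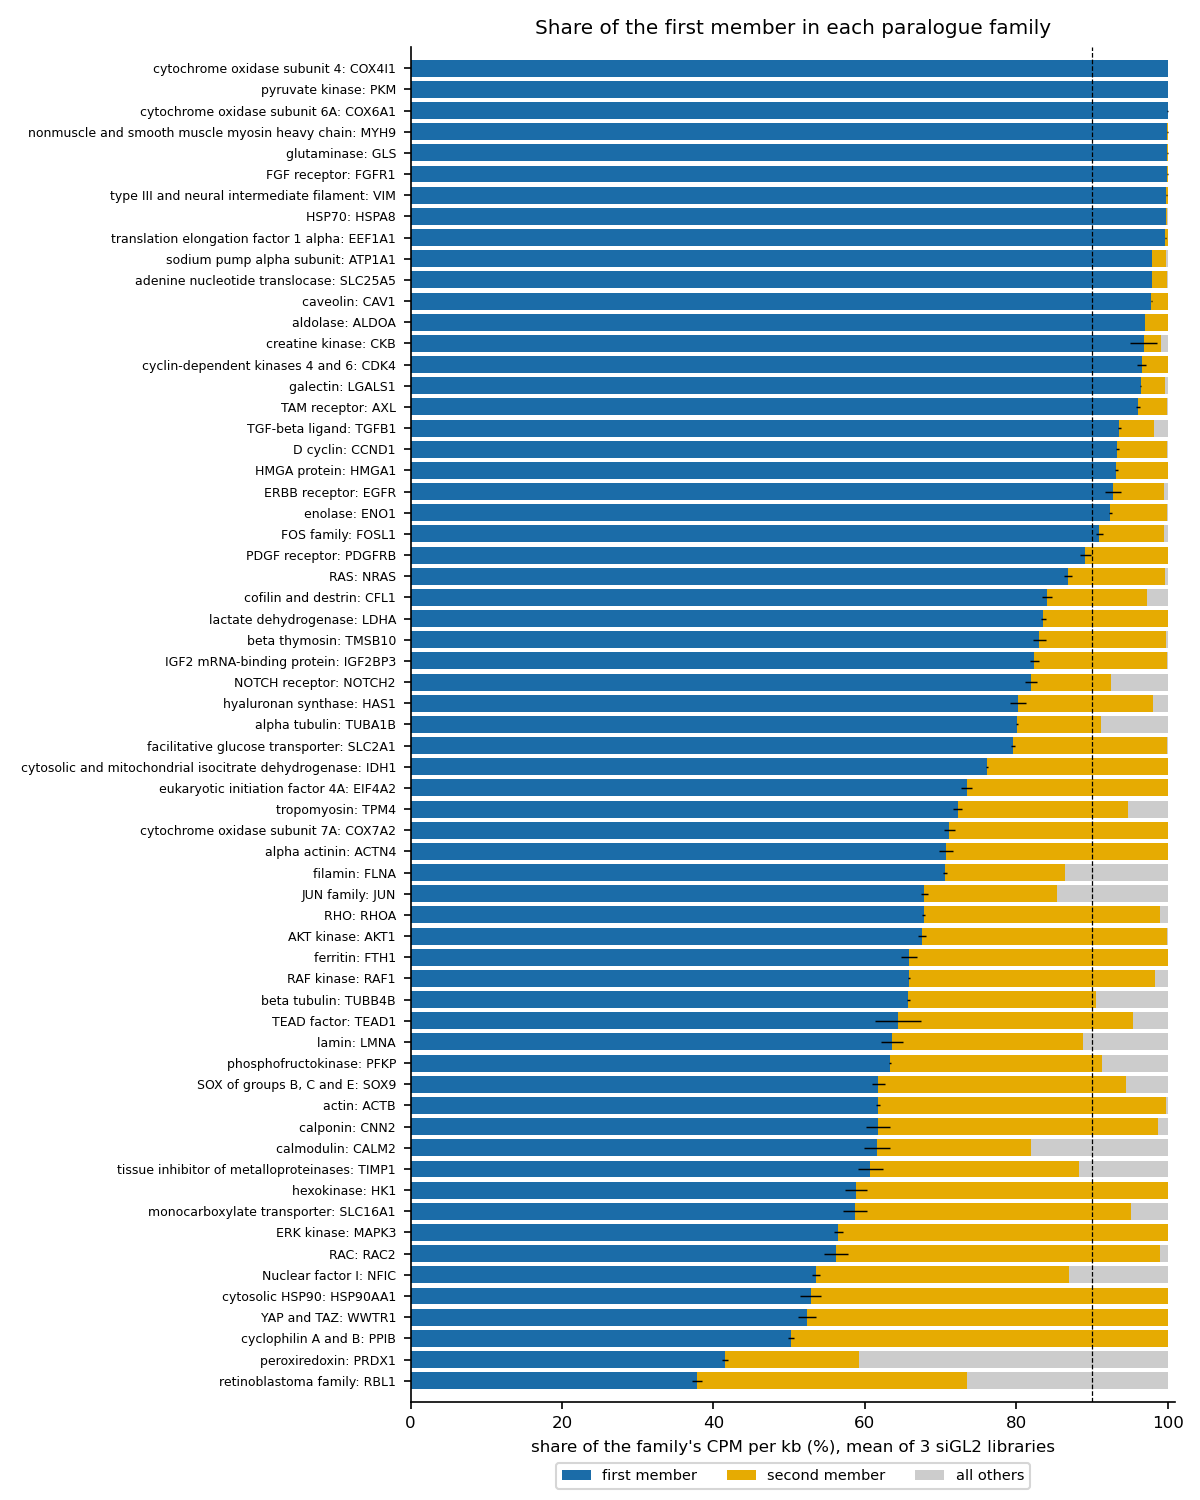
Share of the first, second and remaining members in the summed CPM per kb of each of 63 paralogue families, as the mean of 3 siGL2 libraries with the SD of the first member as a bar; the dashed line marks 90%. VIM, MYH9 and PKM fill their families, while PPIB, PRDX1 and RBL1 stand at 50.3%, 41.5% and 37.8%.

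Spread between the 3 libraries was estimated with edgeR as the biological coefficient of variation, the relative variation beyond counting noise. It was 5.07% over 13685 genes, and 2.51% for B and C without A. The median coefficient of variation of CPM was 10.5% in genes of 1 to 3 CPM, where the value expected from counting alone has a median of 11.1%. It was 4.01% at 30 to 100 CPM and 3.38% above 1000 CPM, where counting alone gives 2.08% and 0.398%. The spread was near the counting value in the scarcest expressed genes and well above it in the abundant ones. A median of coefficients from only 3 libraries tends to lie below the true value. The comparison therefore cannot show whether the scarcest genes vary beyond counting.

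The 10 most variable genes of at least 10 CPM were RN7SL1, ZBED6, KIAA0754, NBEAL1, DDR2, MALAT1, AHCTF1P1, EGFR, LNPEP and BCYRN1. RN7SL1, an RNA of the signal recognition particle, had 484, 580 and 237 counts and was lowest in C, and all its stretches occur in other genes. DDR2, a collagen receptor, had 79.6 CPM in A against 51.6 and 55.0, and LNPEP, a peptidase, 64.4 against 41.8 and 48.1. ZBED6, KIAA0754, NBEAL1, AHCTF1P1 and EGFR were likewise highest in A. The 10 steadiest genes, NKRF, BBS10, BCKDHB, ZP1, MFSD2A, CENPC, VSTM4, INPP5B, ACBD6 and CASP4, all had means of 18.4 to 21.3 CPM. Each had a coefficient of variation of at most 1.02%. Counting alone gives a median of 3.52% at 10 to 30 CPM, so these values do not show that the genes are steady.

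Reference genes of expression assays differed in their spread over the 3 libraries. PGK1, a glycolytic kinase, varied by 0.285% over the 3 libraries, GUSB by 0.729%, ACTB by 1.14%, YWHAZ by 2.06% and SDHA by 2.61%. GAPDH varied by 3.29%, TBP by 3.53%, PSMB6 by 3.88% and TFRC by 4.13%. PPIA, RPL13A, B2M, RPLP0, IPO8 and HPRT1 varied by 5.41% to 8.03%. POLR2A, the large subunit of RNA polymerase II, varied by 13.2%, with 208 CPM in A against 171 and 164. HPRT1 was lowest in A, at 87.6 CPM against 100.5 in B and 101.5 in C. TUBB, near 0, cannot serve here. Counting alone gives a median of 2.08% at 30 to 100 CPM and 3.52% at 10 to 30 CPM. GUSB at 49.8 CPM lay below the value for its level and TBP at 19.4 CPM lay near it. PGK1 likewise lay below the counting value given earlier for genes above 1000 CPM. With 3 libraries, such small values do not show that these genes are steady.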

How the data were processed

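PolyA RNA was taken from cells with TRIzol and an RNeasy column, and strand-specific libraries were read from both ends for 75 bases each, per the labels' protocols. The authors deposited counts, whole numbers for each symbol and without normalization. The submitters' processing notes list bcl2fastq, HISAT, HTSeq, DESeq and build hg38, all without a version. The labels leave out annotation, strand setting and handling of multiply matching reads, not given in the sources used here.

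Among 27192 symbols, 24745 were matched to GENCODE release 29, 536 of them through another symbol, which gave positions, exon lengths (basic annotation), exonic overlap and, from its transcripts, the share of 75-base stretches found in other genes. Genes with 10% or more were treated as uncertain. Counts were scaled by library total. Totals of 42139419 to 46234763 counts set the precision; reads carry no molecular identifiers, so floors cover counting error only. Dispersion was estimated with edgeR 4.0.16 (R 4.3.3) on genes kept by filterByExpr (minimum count 10, minimum total 15), with TMM factors of 0.998 to 1.00, and with DESeq2 1.42.0 as an alternative; the edgeR step was checked on simulated data. Ratios of A to B and C are TMM-scaled. Other steps used Python 3.11.15, pandas 2.3.3, numpy 2.4.6, scipy 1.17.1 and matplotlib 3.10.9. Promoters are from RefSeq.

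No groups were compared, so no test was run. The members, 20 lists and 63 families were chosen with earlier results of these data known. Genes were named by rule: the 20 most abundant by CPM and per kb, the first 5 and the zero members of each list, first and second members of families, the 10 most and least variable genes, reference genes, genes within 1.5 Mb of CDKN2A, LINC00152, MIR4435-2HG and the 10 most abundant long noncoding genes; other genes were named after their values were seen. Not every gene covered by the rule is reported here.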

Additional observations from a re-analysis of the deposited data

How the results depend on the processing

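No paired analysis was possible because only 1 group was described and no test was run. The number of expressed genes ranged from 12144 to 12152 when a library was left out, and from 11330 to 16452 over the other levels and scalings. The 20 most abundant genes took 8.93% to 8.98% with a library left out and 8.64% among protein-coding genes only. The biological coefficient of variation was 2.51% to 6.19% with a library left out, the lowest without A, and 4.95% to 6.27% otherwise. Families led by 1 member numbered 23 with each library left out in turn, 17 to 31 over other lengths and limits, and 14 among families with no uncertain member, a restriction chosen after seeing the data, under which fewer were counted. Of the 20 genes most abundant per kb, 19 to 20 stayed with a library left out and 11 stayed by CPM alone. Genes differing in A numbered 50 with a mean of at least 1 CPM, 121 at a ratio of 5 to 4 and 0 at 2-fold, and 1 each when B or C was set against the others. Listed members at or above the level were 213 to 237. Counts of reads limit genes under about 1 CPM, and genes that share sequence or lie in the histocompatibility complex cannot be read as off.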
